A study of Mus musculus with 8 samples.

Results

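RNA of 41 genes of Wnt signalling was compared between E10.5 mouse hearts lacking Kat6a on both alleles and wild-type hearts of the same stage. The genes were listed by symbol for their known roles in the pathway, with no measured value in the rule, and were matched through Entrez IDs to the deposited counts. The members and the other gene lists used below were still chosen with earlier results of these data known. All 41 were found among 27179 counted genes: 9 Wnt ligands, 2 R-spondins, 14 receptors, 7 secreted antagonists, and 9 intracellular components and targets. Kat6a (Moz) is a MYST-type enzyme that acetylates histones. RNA was sequenced from 3 whole hearts that the labels call MOZ KO (Kat6a-/-, written Kat6a KO here) and 5 whole hearts that they call MOZ WT (Kat6a+/+, written Kat6a WT). No other allele or agent is named for either group. The sources used here do not state how the allele was made, the strain, the litter or the sex of the embryos. The p-values cover only how these 8 hearts varied.

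Wnt ligands are secreted, lipid-modified proteins that bind Frizzled receptors. With the co-receptors Lrp5 and Lrp6 they hold back the destruction of beta-catenin, which then enters the nucleus and activates targets with Tcf and Lef factors. Other ligands, such as Wnt5a and Wnt11, act largely without beta-catenin, through Ror receptors and the planar polarity pathway. In the embryonic heart, Wnt5a and Wnt11 are known for their part in the outflow tract, Wnt2 for the inflow region, and beta-catenin signalling for the renewal of progenitors and the growth of the compact myocardium. The comparison asks what loss of Kat6a does to this pathway in the heart, and the title of the series speaks of acetylated histone H3 and of the epicardium, the outer cell layer of the heart.

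Libraries held 19911803 to 34539787 counts. RNA of Kat6a itself was at 133 to 141 CPM in Kat6a KO and 138 to 156 CPM in Kat6a WT hearts (counts per 1e+06 of the scaled library), with a log2 fold change of -0.08 ± 0.05 (SE; edgeR, adjusted p = 0.529). Which exons the allele removes is not given, so reads over all its exons do not check the labels, and the groups are taken as labelled. Cardiomyocyte markers summed to 28854 to 32352 CPM in Kat6a KO and 27859 to 29639 CPM in Kat6a WT hearts, so the tissue was as labelled. The neural crest gene Foxd3 and the neural gene Neurog1 had 0 counts in all 8 hearts, where 3 counts would be 0.151 CPM in the shallowest library. Sox10, Tfap2a, Sox2 and Pax6 were detected in all 8 hearts at low levels. Neural crest markers summed to 0.870 to 1.32 CPM in Kat6a KO and 1.05 to 1.87 CPM in Kat6a WT hearts. Neural tube markers summed to 1.41 to 2.16 and 0.914 to 1.44 CPM in the same order. Among them Pax6 did not overlap, at 0.669 to 1.37 and 0.271 to 0.653 CPM, and did not pass (edgeR, adjusted p = 0.135). Xist, an RNA of female cells, reached 306 and 300 CPM in Kat6a WT replicates 4 and 5, while the 3 Kat6a KO hearts and the other 3 Kat6a WT hearts had 0.372 CPM or less, so Xist RNA is partly confounded with genotype. Over all genes tested, 1.23% fell and 1.44% rose in Kat6a KO at an adjusted p under 0.05 by edgeR. Of 8 epicardial markers, 5 fell in Kat6a KO and 3 did not pass. The summed level of the epicardial markers was 287 to 332 CPM in Kat6a KO hearts, under the 407 to 467 CPM of Kat6a WT hearts, and none was at 0. Of 5 markers of cushion mesenchyme 2 fell, of 6 endothelial markers 2 rose and 1 fell, and of 4 macrophage markers 3 rose. The macrophage markers summed to 13.8 to 16.8 CPM in Kat6a KO and 3.59 to 10.6 CPM in Kat6a WT hearts, and the cushion markers to 1362 to 1601 and 1381 to 1594 CPM in Kat6a KO and Kat6a WT hearts. Liver markers summed to 13.6 CPM in Kat6a KO replicate 3, and to 1.07 to 1.91 CPM in the other Kat6a KO hearts and 0.338 to 1.37 CPM in Kat6a WT hearts.

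Of the 41 members 40 could be tested, and 3 of these (7.50%) passed the threshold in Kat6a KO hearts, against 2.67% of all genes tested. None of the 3 differed by 2-fold. The ligand Wnt11 and the R-spondin Rspo1 fell, and the receptor Ror1 rose. Wnt11 was 16.8% lower, Rspo1 44.0% lower and Ror1 27.9% higher in Kat6a KO hearts. None of these calls held throughout: of 18 alternative fits, Rspo1 kept its call in 13, Wnt11 in 9 and Ror1 in 8. The beta-catenin gene Ctnnb1 and the pathway target Axin2 had values that overlapped between the groups and fold changes close to 0.

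Of the 41 members, 40 passed the filter on low counts, and the ligand Wnt6 did not. Of these 40, 1 rose and 2 fell at an adjusted p under 0.05 (edgeR quasi-likelihood test, Benjamini-Hochberg over all genes tested). That is 3 of 40, or 7.50%, where 2.67% of all 15086 genes tested were called, made up of 1.44% higher and 1.23% lower in Kat6a KO. A further 8 members had an unadjusted p under 0.05 only, which makes 11 of 40 (27.5%) against 14.2% of all genes. Of the 11, 2 were higher in Kat6a KO, where 7.43% of all genes were, and 9 were lower, where 6.81% of all genes were. The values of the 3 Kat6a KO hearts lay entirely apart from those of the 5 Kat6a WT hearts for 6 members (15.0%), against 9.59% of all genes. These were Ror1, higher in Kat6a KO, and Wnt11, Rspo1, Lrp5, Sfrp5 and Tcf7l1, lower in Kat6a KO. Of the 40 log2 fold changes (Kat6a KO over Kat6a WT), 30 were below 0, or 75.0%, against 50.1% of all genes tested. Their median was -0.09, and that of all genes 0.00. Members share a pathway and hearts, so these counts are not counts of independent events. Members were also chosen with earlier results of these data known, so these shares are no independent support. In whole hearts fewer cells of a type and less RNA per cell cannot be told apart.

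**Figure D1:**
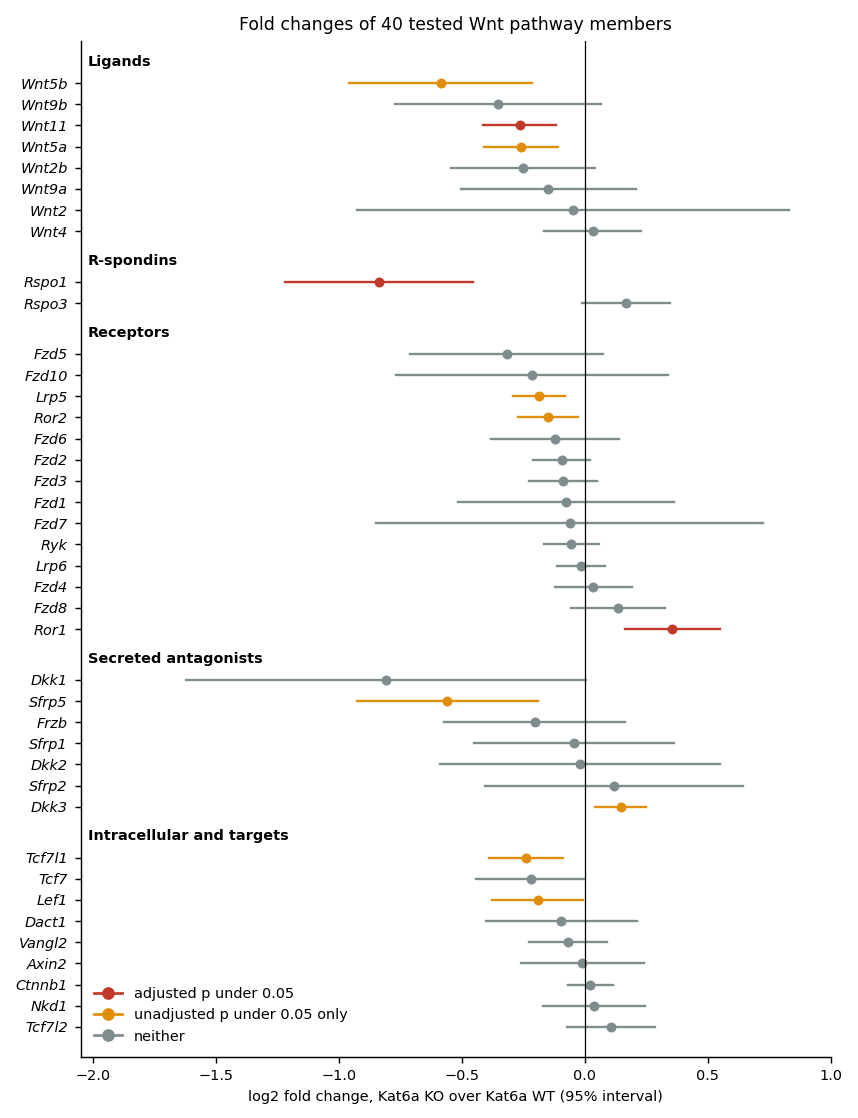
Log2 fold change of each of the 40 tested members (points; Kat6a KO over Kat6a WT) with its 95% interval (lines), grouped by role and ordered within a role. Rspo1 at -0.84, Wnt11 at -0.27 and Ror1 at 0.35 are the 3 members past an adjusted p of 0.05, 7 of 8 ligands lie left of 0, and Ctnnb1, Axin2 and Nkd1 lie within 0.04 of 0.

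The 250 bases before the transcription start in the RefSeq promoter table (GRCm38.p6) are shown for the 3 members that passed the threshold and for Axin2, the standard readout of beta-catenin signalling, because beta-catenin acts on DNA through Tcf and Lef factors, whose binding letters can be searched for. The letters searched, on both strands, were CTTTGAA or CTTTGAT, and likewise CTTTGTA or CTTTGTT, and capitals mark a match. All 4 lie on the plus strand of the build, in mm10 coordinates: Wnt11 at chr7:98834862-98835111, Rspo1 at chr4:124986180-124986429, Ror1 at chr4:100095541-100095790 and Axin2 at chr11:108920099-108920348. The table's start is not always the first base of the gene's span: the Wnt11 and Rspo1 windows run slightly into their genes, and the Axin2 window lies inside a gene whose span begins at 108917828, so the bases before that earlier start are not shown.
Wnt11: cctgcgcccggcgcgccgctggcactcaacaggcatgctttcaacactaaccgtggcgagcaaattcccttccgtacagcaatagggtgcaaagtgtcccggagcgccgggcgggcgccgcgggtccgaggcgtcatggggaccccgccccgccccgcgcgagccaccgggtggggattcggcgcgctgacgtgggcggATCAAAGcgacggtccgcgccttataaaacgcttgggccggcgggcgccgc
Rspo1: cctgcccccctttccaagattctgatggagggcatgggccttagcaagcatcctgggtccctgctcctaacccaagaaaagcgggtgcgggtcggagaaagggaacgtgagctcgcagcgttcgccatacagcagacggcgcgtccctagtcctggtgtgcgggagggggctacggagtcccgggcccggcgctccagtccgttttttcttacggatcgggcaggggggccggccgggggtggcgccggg
Ror1: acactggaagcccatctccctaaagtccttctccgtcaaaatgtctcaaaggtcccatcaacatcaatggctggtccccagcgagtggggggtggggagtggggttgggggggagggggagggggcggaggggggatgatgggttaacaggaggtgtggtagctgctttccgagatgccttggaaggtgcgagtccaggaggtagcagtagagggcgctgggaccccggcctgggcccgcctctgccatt
Axin2: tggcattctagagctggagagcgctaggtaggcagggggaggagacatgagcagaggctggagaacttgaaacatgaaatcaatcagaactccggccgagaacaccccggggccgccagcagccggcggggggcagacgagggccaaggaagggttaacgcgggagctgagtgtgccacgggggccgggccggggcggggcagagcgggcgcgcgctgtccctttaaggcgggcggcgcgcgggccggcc
The Wnt11 window held 1 match, CTTTGAT on the minus strand, 51 to 45 bases before the start. The windows of Rspo1, Ror1 and Axin2 held none, which says only that these letters are not in these windows. Windows were found for 31 members, and 3 of the 31 (9.68%) held a match, namely Wnt11, Dkk1 with 2 matches and Fzd7. Of all 32851 windows in the table, 14.8% held a match. That share counts every window, with several for some genes, while each member was counted by 1 window. For the 6 members with several windows, Wnt11 among them, the window nearest the 5′ end of the gene was taken.

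Among the ligands, 1 of 8 tested fell (12.5%), 0 rose and 7 did not pass, where 1.23% of all genes fell and 1.44% rose. Their median log2 fold change was -0.26, against 0.00 over all genes. By DESeq2 3 ligands fell (Wnt11, Wnt5a and Wnt5b) and by limma voom 0 fell, and both gave 0 that rose. Over all genes DESeq2 called 560 and limma voom 370, against 403 by edgeR. At an unadjusted p under 0.05 edgeR gave 0 higher and 3 lower (37.5%), where 6.81% of all genes were lower. Wnt11 (Entrez gene 22411, chromosome 7, 98835084 to 98854747), a ligand that acts mainly without beta-catenin in the outflow tract and second heart field, had 42.5, 48.8 and 39.99 CPM in Kat6a KO replicates 1 to 3, against 57.1, 54.1, 51.9, 50.6 and 48.8 CPM in Kat6a WT replicates 1 to 5. The highest Kat6a KO heart, replicate 2, lay just under the lowest Kat6a WT heart, replicate 5 (48.80 against 48.84 CPM), so the groups did not overlap but nearly met. The log2 fold change of Wnt11 came to -0.27 ± 0.07 (SE, with an adjusted p from edgeR's test of 0.0480). In edgeR the call ended on leaving out Kat6a KO replicate 1 or 3 or Kat6a WT replicate 1, 2, 3 or 4, with an adjusted p of 0.0560 to 0.220. With the 2 Xist-positive hearts left out it was kept, with a log2 fold change of -0.32 and an adjusted p of 0.0388 by edgeR (0.0147 to 0.220 over all alternatives). An antisense gene, Gm8398, shares 364 bases with its exons, and the strand setting of the counting is not given.

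Wnt5a, the most abundant ligand per length on average, acts through Ror receptors in elongating tissues. It had 98.9, 85.2 and 86.5 CPM in Kat6a KO replicates 1 to 3, against 113, 120.0, 111, 96.3 and 100.03 CPM in Kat6a WT replicates 1 to 5. Kat6a KO replicate 1 lay above Kat6a WT replicate 4, so the groups overlapped. The log2 fold change was -0.26 ± 0.07 (SE; 95% interval -0.41 to -0.11; edgeR, adjusted p = 0.0717) and did not pass. The 2 Kat6a WT hearts with Xist RNA had the lowest Wnt5a of their group. Without them the log2 fold change was -0.34 with an adjusted p of 0.00691, and with Xist RNA as a covariate -0.36 with 0.00209, both past the threshold, as it also was without Kat6a KO replicate 1 (0.0393), Kat6a WT replicate 4 (0.0193) or Kat6a WT replicate 5 (0.0498). It also passed in DESeq2 (0.0222) and with no count filter (0.0325), and in 1 more of the 18 alternatives, a replicate block (0.0218). Over all alternatives the adjusted p ran up to 0.236. Its exons share 358 bases with the antisense gene Gm2670.

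Wnt5b, the close paralog of Wnt5a, had 10.01, 6.40 and 8.41 CPM in Kat6a KO and 9.68, 15.6, 10.7, 14.9 and 12.1 CPM in Kat6a WT hearts. Kat6a KO replicate 1 lay above Kat6a WT replicate 1, and the groups overlapped. Its log2 fold change of -0.59 ± 0.17 (SE) did not pass (edgeR, adjusted p = 0.105), but did so without Kat6a WT replicate 1 (0.0289) and in DESeq2 (0.0234), within a range of 0.0234 to 0.492 over all alternatives. The other tested ligands had 95% intervals that held 0. Wnt2b was at 9.88 ± 1.08 CPM in Kat6a KO and 11.8 ± 2.20 CPM in Kat6a WT hearts (SD, n = 3 and n = 5). Wnt9b was at 3.72 ± 0.966 and 4.801 ± 0.948 CPM in Kat6a KO and Kat6a WT hearts, and Wnt9a at 5.30 ± 1.24 and 5.95 ± 0.921 CPM in the same order. These 3 ligands had log2 fold changes of -0.25, -0.35 and -0.15. Wnt4 was the tested ligand with a log2 fold change above 0, at 0.03 (95% interval -0.17 to 0.23), and at -0.01 without the Xist-positive hearts. Wnt6 was near the limit of detection, with 2 to 11 counts in Kat6a KO and 4 to 16 counts in Kat6a WT hearts.

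**Figure D2:**
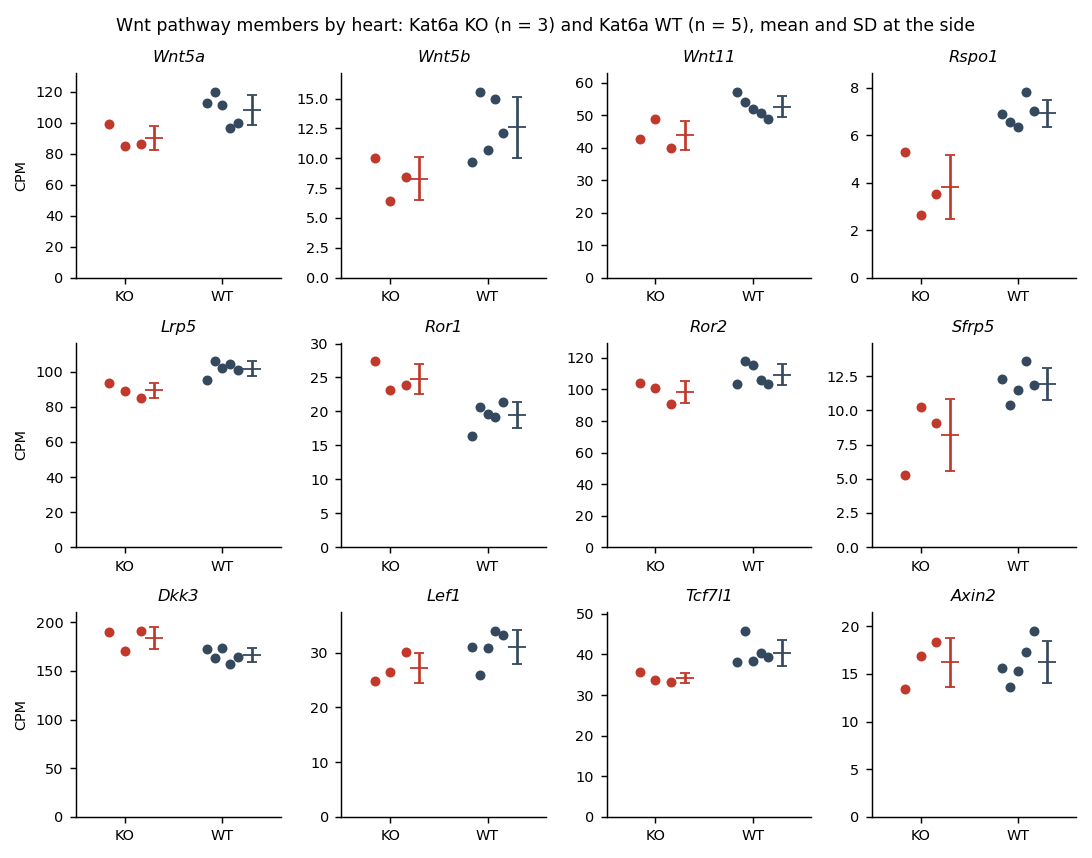
CPM in each heart (points) for the 11 members with an unadjusted p under 0.05 and for Axin2, Kat6a KO left of Kat6a WT, with the mean and SD of the group at its side; every axis starts at 0. Rspo1 lies between 2.64 and 5.29 CPM in Kat6a KO and between 6.35 and 7.83 CPM in Kat6a WT hearts, the Ror1 values of Kat6a KO lie above those of Kat6a WT, and the values of Axin2 overlap.

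Levels were compared between genes as RPKM, the CPM per kilobase of the gene length in the deposited file. Summed over the 9 ligands, the level was 63.6, 60.9 and 65.6 RPKM in Kat6a KO replicates 1 to 3, against 71.3, 74.4, 69.9, 73.7 and 79.4 RPKM in Kat6a WT replicates 1 to 5. Every Kat6a KO heart was thus under every Kat6a WT heart, with group means of 63.3 ± 2.36 and 73.7 ± 3.66 RPKM in Kat6a KO and Kat6a WT hearts (SD, n = 3 and n = 5). The shares that each of the 9 ligands took of this sum overlapped between the groups. Wnt5a took 32.6% ± 2.74 of it in Kat6a KO and 33.6% ± 3.93 in Kat6a WT hearts, Wnt11 took 24.9% ± 3.52 and 25.6% ± 2.48, and Wnt2 took 21.8% ± 4.95 and 19.3% ± 6.86 in the same order. By the mean of the Kat6a WT hearts the order per length was Wnt5a, Wnt11 and Wnt2, at 24.7 ± 2.21, 18.8 ± 1.16 and 14.3 ± 5.81 RPKM, followed by Wnt5b, Wnt4, Wnt2b, Wnt9a, Wnt9b and Wnt6. Wnt11 and Wnt2 differed by less than the SD of Wnt2, and in Kat6a WT replicate 5 Wnt2 was the highest, at 23.5 RPKM, with Wnt5a at 22.9 RPKM. The summed epicardial markers were also lower in every Kat6a KO heart than in every Kat6a WT heart, as given above. The part of the epicardium in the ligand levels was not tested.

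**Figure D3:**
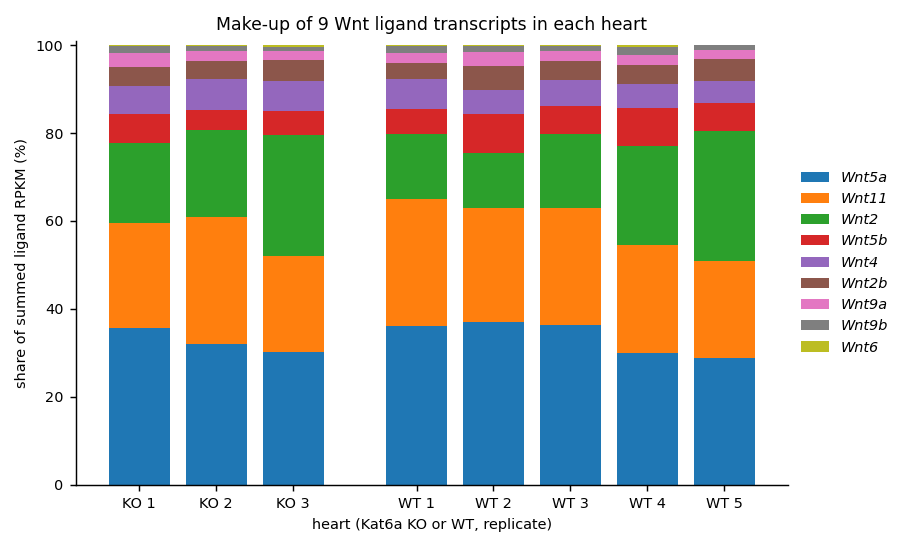
Share of each of the 9 Wnt ligands in their summed RPKM (stacked bars, in percent), for 3 Kat6a KO hearts at the left and 5 Kat6a WT hearts at the right. Wnt5a, Wnt11 and Wnt2 hold most of every bar, and Wnt2 varies from 12.5% in Kat6a WT replicate 2 to 29.6% in Kat6a WT replicate 5.

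R-spondins are secreted proteins that bind Lgr receptors and keep Frizzled receptors on the cell surface by removing the ubiquitin ligases Znrf3 and Rnf43. Of the 2 measured as members, Rspo1 fell and Rspo3 did not pass. Rspo1 (Entrez gene 192199, chromosome 4, 124986401 to 125009102) had 5.29, 2.64 and 3.51 CPM in Kat6a KO replicates 1 to 3, against 6.90, 6.56, 6.35, 7.83 and 7.03 CPM in Kat6a WT replicates 1 to 5. All Kat6a KO hearts were below all Kat6a WT hearts, and the Kat6a KO hearts spread more, from 52 counts in replicate 2 to 158 counts in replicate 1. Rspo1 thus had a log2 fold change of -0.84 ± 0.18 (SE; adjusted p = 0.0127 by edgeR). It was the largest fold change among the 40 members in either direction. Leaving out Kat6a KO replicate 2 (edgeR, adjusted p = 0.0845), Kat6a KO replicate 3 (0.0802) or the Xist-positive hearts (log2 fold change -0.77, adjusted p = 0.0793) ended the call, in a range of 0.00153 to 0.0887 over all alternatives. Of 8 epicardial markers 7 had a log2 fold change below 0, 5 of them past the threshold, and Msln was at 0.52. Of 5 cushion markers 2 fell, Msx1 at -1.01 and Twist1 at -0.48. Of 6 endothelial markers 1 fell, Npr3 at -0.49, and 2 rose, where 1.23% of all genes tested fell and 1.44% rose. The part of any of these cell types in the Rspo1 result was not tested.

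Rspo3, the abundant R-spondin of this tissue, had 58.4, 54.9 and 60.4 CPM in Kat6a KO replicates 1 to 3, against 58.3, 55.1, 54.5, 45.1 and 44.4 CPM in Kat6a WT replicates 1 to 5. Kat6a WT replicates 4 and 5, the Xist-positive hearts, were the low ones of their group, and the other 3 lay within the range of the Kat6a KO hearts or close to it. The log2 fold change was 0.17 ± 0.08 (SE; edgeR, adjusted p = 0.387). Rspo1 made up 7.85% ± 2.43 of the summed RPKM of both genes in Kat6a KO hearts and 15.1% ± 2.49 in Kat6a WT hearts. The sum itself overlapped, at 24.3 to 27.2 RPKM in Kat6a KO and 22.4 to 28.1 RPKM in Kat6a WT hearts.

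Of the 14 receptors 1 rose (7.14%), 0 fell and 13 did not pass by edgeR, where 1.44% of all genes rose and 1.23% fell. By DESeq2 1 fell (Lrp5) and by limma voom 0 fell. Ror1 rose by both (adjusted p = 0.0216 by DESeq2 and 0.0491 by limma voom). At an unadjusted p under 0.05, 2 receptors were lower by edgeR (Lrp5 and Ror2). Of all genes, 6.81% were lower at that unadjusted p. Ror1 (Entrez gene 26563, chromosome 4, 100095791 to 100444806) and Ror2 encode receptor tyrosine kinases that bind Wnt5a. Ror1 had 27.4, 23.2 and 23.8 CPM in Kat6a KO replicates 1 to 3, against 16.4, 20.7, 19.6, 19.1 and 21.4 CPM in Kat6a WT replicates 1 to 5. Every Kat6a KO heart was above every Kat6a WT heart. Ror1 had a log2 fold change of 0.35 ± 0.09 (SE; adjusted p = 0.0434 by edgeR). By edgeR, the call ended on leaving out any of Kat6a KO replicates 1, 2 and 3 or Kat6a WT replicates 1, 3 and 4, with an adjusted p of 0.0644 to 0.311, or the Xist-positive hearts (log2 fold change 0.40, adjusted p = 0.0632), in a range of 0.0216 to 0.311 over all alternatives.

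Ror2, the more abundant of the pair, had 104, 100.9 and 90.8 CPM in Kat6a KO and 104, 118, 116, 106 and 104 CPM in Kat6a WT hearts. Kat6a KO replicate 1 lay slightly above Kat6a WT replicates 1 and 5, and the groups overlapped. At a log2 fold change of -0.15 ± 0.06 (SE; edgeR, adjusted p = 0.223) it did not pass. Per length, Ror1 stood at 7.001 ± 0.636 RPKM in Kat6a KO and 5.49 ± 0.538 RPKM in Kat6a WT hearts, and Ror2 at 24.8 ± 1.76 and 27.6 ± 1.72 RPKM in the same order (SD, n = 3 and n = 5). Whether the fold changes of these 2 genes differ was not tested.

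Lrp5, a co-receptor of Frizzled in beta-catenin signalling, had 93.6, 89.2 and 85.2 CPM in Kat6a KO and 95.3, 106, 102, 104 and 100.8 CPM in Kat6a WT hearts. All Kat6a KO hearts lay below all Kat6a WT hearts by a small margin, from 93.6 CPM in Kat6a KO replicate 1 to 95.3 CPM in Kat6a WT replicate 1. A log2 fold change of -0.19 ± 0.05 (SE) missed the threshold (edgeR, adjusted p = 0.0578) and passed it without Kat6a WT replicate 1 (0.0250) and in DESeq2 (0.0287), in a range of 0.0250 to 0.289 over all alternatives. Lrp6, its paralog, was at 113 ± 1.09 CPM in Kat6a KO and 114 ± 4.06 CPM in Kat6a WT hearts, with a 95% interval of -0.11 to 0.08 for the log2 fold change.

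Fzd2 was the most abundant receptor per length in every heart. It had 141, 135 and 146 CPM in Kat6a KO and 136, 165, 144, 154 and 153 CPM in Kat6a WT hearts, with Kat6a KO replicate 2 just under the lowest Kat6a WT heart and the other Kat6a KO hearts inside the range of Kat6a WT. The log2 fold change was -0.09 ± 0.06 (SE; edgeR, adjusted p = 0.485). None of the 9 Frizzled genes passed by edgeR, DESeq2 or limma voom or had an unadjusted p under 0.05 by edgeR, and their log2 fold changes ran from -0.32 for Fzd5 to 0.14 for Fzd8. In Kat6a WT hearts the receptors ranged from 41.4 ± 3.02 RPKM for Fzd2, 33.9 ± 2.05 RPKM for Ryk and 27.6 ± 1.72 RPKM for Ror2 down to 1.20 ± 0.434 RPKM for Fzd10. Ryk, an atypical kinase that binds Wnt ligands, had a log2 fold change of -0.05 (95% interval -0.17 to 0.06). The summed receptor level overlapped between the groups, at 186 to 196 RPKM in Kat6a KO and 183 to 219 RPKM in Kat6a WT hearts.

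**Figure D4:**
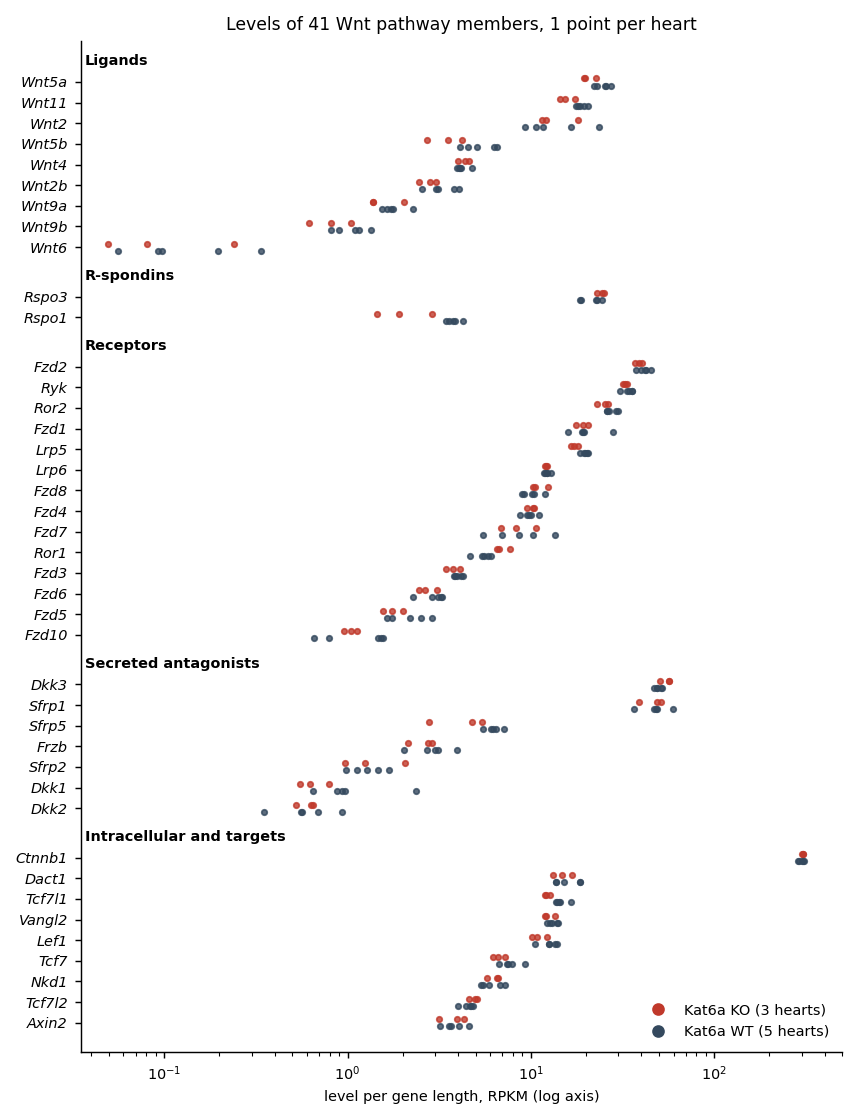
Level per gene length (RPKM, log axis) of all 41 members in each heart, with Kat6a KO points above Kat6a WT points in each row, grouped by role and ordered by the Kat6a WT mean. Ctnnb1 stands above every other member in every heart, at 299 RPKM on average in Kat6a WT hearts, and the 2 most abundant secreted antagonists, Dkk3 and Sfrp1, have Kat6a WT means above those of all ligands.

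Secreted antagonists bind Wnt ligands (the Sfrp family and Frzb) or the Lrp co-receptors (Dkk1 and Dkk2). Of 7 tested, 0 passed by edgeR and 0 by limma voom, 1 passed by DESeq2 (Sfrp5), and 2 had an unadjusted p under 0.05 by edgeR. Those 2 are 28.6% of the 7, against 14.2% of all genes tested. Sfrp5, known from the inflow region and the foregut, had 5.25, 10.3 and 9.04 CPM in Kat6a KO and 12.3, 10.4, 11.5, 13.6 and 11.8 CPM in Kat6a WT hearts. All Kat6a KO hearts lay below all Kat6a WT hearts, with replicate 1 lowest and replicate 2 close to the Kat6a WT range. For Sfrp5 the log2 fold change of -0.56 ± 0.17 (SE) did not pass (edgeR, adjusted p = 0.119), but did so without Kat6a KO replicate 2 (0.0361) and in DESeq2 (0.0408), in a range of 0.0361 to 0.415 over all alternatives.

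Dkk3, a divergent family member whose action on Wnt signalling is unsettled, had the highest mean among the antagonists per length, close to that of Sfrp1. It had 190.0, 171 and 191 CPM in Kat6a KO and 173, 164, 174, 157 and 164 CPM in Kat6a WT hearts. Kat6a KO replicates 1 and 3 lay above all Kat6a WT hearts and replicate 2 within their range. The log2 fold change was 0.15 ± 0.05 (SE; edgeR, adjusted p = 0.156). Per length Dkk3 stood at 54.8 ± 3.45 RPKM in Kat6a KO and 49.5 ± 2.10 RPKM in Kat6a WT hearts. Sfrp1 was at 46.4 ± 6.54 RPKM in Kat6a KO and 47.9 ± 8.08 RPKM in Kat6a WT hearts, above Dkk3 in Kat6a WT replicates 2 and 4, with a log2 fold change of -0.05 (95% interval -0.45 to 0.36). Dkk1, an inhibitor of the Lrp co-receptors, was low, at 1.47 ± 0.278 CPM in Kat6a KO and 2.60 ± 1.54 CPM in Kat6a WT hearts. The Dkk1 log2 fold change of -0.81 ± 0.38 (SE; edgeR, adjusted p = 0.356) comes from a group in which Kat6a WT replicate 2 stood at 5.31 CPM and the other 4 hearts at 1.45 to 2.18 CPM. Sfrp2, Frzb and Dkk2 were between 0.618 and 2.96 RPKM on average in Kat6a WT hearts and had 95% intervals that held 0. Summed over the 7 antagonists, the level was 100.8 to 119 RPKM in Kat6a KO and 99.9 to 122 RPKM in Kat6a WT hearts, an overlap that the summed ligands did not have.

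Of the 9 intracellular components and targets, 0 passed by edgeR, DESeq2 or limma voom and 2 had an unadjusted p under 0.05 by edgeR, Tcf7l1 and Lef1. Those 2 are 22.2% of the 9, against 14.2% of all genes tested. All 9 had a log2 fold change under 0.25 in size, and all 9 of their 95% intervals lay within 0.5 of 0. Ctnnb1, which encodes beta-catenin, had 1105, 1098 and 1094 CPM in Kat6a KO and 1106, 1124, 1085, 1043 and 1055 CPM in Kat6a WT hearts. The Kat6a KO hearts lay inside the range of Kat6a WT, and the log2 fold change was 0.02 ± 0.04 (SE; 95% interval -0.07 to 0.11; edgeR, adjusted p = 0.889). Its sign turned without the Xist-positive hearts, at -0.01, and its exons share 759 bases with those of Ulk4, another tested gene on the opposite strand. Axin2, which is induced by beta-catenin and feeds back on its destruction complex, had 13.4, 16.9 and 18.4 CPM in Kat6a KO and 15.6, 13.6, 15.3, 17.3 and 19.5 CPM in Kat6a WT hearts. The lowest value was in Kat6a KO and the highest in Kat6a WT, and the groups overlapped. Its log2 fold change was -0.01 ± 0.12 (SE; 95% interval -0.26 to 0.24; edgeR, adjusted p = 0.983), and 0.12 without the Xist-positive hearts. Nkd1, another feedback inhibitor that beta-catenin induces, had a log2 fold change of 0.04 (95% interval -0.17 to 0.24).

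The Tcf and Lef factors carry beta-catenin to DNA. Lef1 had 24.8, 26.5 and 30.2 CPM in Kat6a KO and 31.1, 25.9, 30.8, 34.0 and 33.2 CPM in Kat6a WT hearts. The groups overlapped, with Kat6a WT replicate 2 within the range of Kat6a KO. Lef1 had a log2 fold change of -0.19 ± 0.09 (SE; edgeR, adjusted p = 0.331). Tcf7l1, which acts mostly as a repressor, had 35.6, 33.7 and 33.2 CPM in Kat6a KO and 38.0, 45.8, 38.5, 40.4 and 39.4 CPM in Kat6a WT hearts, all Kat6a KO hearts below all Kat6a WT hearts. The log2 fold change of -0.24 ± 0.07 (SE) did not pass (edgeR, adjusted p = 0.0876, and 0.0585 to 0.249 over all alternatives). Tcf7 was at -0.22 and Tcf7l2 at 0.11 on the log2 scale, with 95% intervals of -0.44 to 0.00 and -0.07 to 0.28. Vangl2, a core protein of planar polarity, and Dact1, an adaptor that binds Dishevelled, had log2 fold changes of -0.07 and -0.10 with adjusted p-values of 0.754 and 0.828 (edgeR).

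Members differed in how steady they were between hearts of one genotype. The coefficient of variation over the 5 Kat6a WT hearts ranged among tested members from 3.13% for Ctnnb1 to 59.3% for Dkk1, with a median of 12.0%, against 8.16% over all genes tested. Wnt2 and Fzd7, singled out after their values were seen, are abundant genes that varied widely. Wnt2 had 24.3, 25.7 and 38.1 CPM in Kat6a KO and 22.4, 19.7, 24.7, 35.2 and 49.7 CPM in Kat6a WT hearts. Fzd7 had 33.1, 39.6 and 51.0 CPM in Kat6a KO and 26.4, 41.4, 33.5, 49.4 and 64.8 CPM in Kat6a WT hearts. In both genes Kat6a KO replicate 3 and Kat6a WT replicates 4 and 5 were the high hearts. Their log2 fold changes of -0.05 and -0.06 had wide 95% intervals, -0.92 to 0.83 and -0.85 to 0.72. Leaving out the Xist-positive hearts gave 0.39 and 0.29, with adjusted p-values of 0.409 and 0.725 (edgeR).

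Kat6a WT replicates 4 and 5 were also set against the other Kat6a WT hearts over all members. Within Kat6a WT, the values of the 2 hearts with Xist RNA and the 3 without did not overlap for 13 of 40 tested members, against 26.0% of all genes tested. Such a split was thus common over all genes, and the count is not read as particular to the members. Of the 13, 7 were higher with Xist RNA, namely Wnt2, Rspo1, Fzd5, Fzd7, Lef1, Axin2 and Nkd1, and 6 were lower, namely Wnt4, Wnt5a, Wnt11, Rspo3, Ryk and Ctnnb1. Axin2 was at 17.3 to 19.5 CPM in the 2 hearts with Xist RNA and at 13.6 to 15.6 CPM in the 3 without. Whether this goes with sex, litter or dissection cannot be told apart.

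Another 84 Wnt pathway genes that were not members were counted, and 65 of them were tested. Of these, 3 rose, 1 fell and 61 did not pass, which is 6.15% called against 2.67% of all genes, with a median log2 fold change of -0.02. Gpc3 and Gpc4 encode glypicans, cell-surface proteoglycans that bind Wnt ligands, and are neighbours on the X chromosome. Gpc4 (52051007 to 52164923) had 105, 105 and 98.7 CPM in Kat6a KO and 75.7, 73.5, 80.0, 72.5 and 77.7 CPM in Kat6a WT hearts. The groups were well apart, with a log2 fold change of 0.44 ± 0.05 (SE; edgeR, adjusted p = 4.45e-05) that passed under all 18 alternatives, with an adjusted p of up to 0.00546. Gpc3 (52272426 to 52613974) moved the other way, with 481, 465 and 461 CPM in Kat6a KO and 525, 632, 535, 508 and 539.6 CPM in Kat6a WT hearts and a log2 fold change of -0.22 ± 0.06 (SE; edgeR, adjusted p = 0.0480). Its call ended on leaving out any of Kat6a KO replicates 1, 2 and 3 or Kat6a WT replicates 3 and 5, with an adjusted p of 0.0772 to 0.159.

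Wnt16, a ligand that was low in all hearts, had 2.74, 2.08 and 1.62 CPM in Kat6a KO and 0.440, 1.01, 0.957, 0.696 and 1.05 CPM in Kat6a WT hearts. It rose by 1.38 ± 0.32 (SE) on the log2 scale (edgeR, adjusted p = 0.0171), and the call was lost without Kat6a KO replicate 1 (0.192), without Kat6a KO replicate 2 (0.0560) or without the Xist-positive hearts (0.0522), in a range of 0.00538 to 0.192 over all alternatives. Camk2d, a calcium-dependent kinase of the heart that also serves Wnt and calcium signalling, rose by 0.19 ± 0.05 (SE; edgeR, adjusted p = 0.0263), a call that ended without Kat6a KO replicate 1 or 3, Kat6a WT replicate 3 or 4, or the Xist-positive hearts, with an adjusted p of 0.0575 to 0.148. The R-spondin receptor Lgr4 was at 80.9 ± 2.68 CPM in Kat6a KO and 90.1 ± 1.92 CPM in Kat6a WT hearts (edgeR, adjusted p = 0.109), and the ubiquitin ligase Znrf3 at 18.4 ± 0.943 and 19.5 ± 1.11 CPM in Kat6a KO and Kat6a WT hearts (0.737). Of the 10 listed targets, 8 were tested and did not pass, with 5 log2 fold changes above 0 and 3 below. An unadjusted p under 0.05 was found for 3 of these 8 (37.5%), against 14.2% of all genes tested. The growth factor gene Fgf9 at 0.39 and the receptor gene Tnfrsf19 at 0.13 were higher in Kat6a KO. The transcription factor gene Mycn at -0.14 was lower (edgeR, adjusted p = 0.259, 0.325 and 0.238 for the 3 genes in that order). Another 19 pathway genes were under the filter on low counts, among them the ligand Wnt3a, which had 0 counts in every heart.

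The 3 member calls did not stand under the same conditions. Rspo1 kept its call under 13 of 18 alternatives, Wnt11 under 9 and Ror1 under 8, and each kept its direction under all 18. Without Kat6a KO replicate 3, 0 of the 40 members passed in edgeR and 10 had an unadjusted p under 0.05. The other tools were not run on that subset. Over all genes 263 passed in edgeR without that heart, against 403 with all 8 hearts. Leaving out Kat6a KO replicate 1 left Rspo1 and brought in Wnt5a, while leaving out Kat6a KO replicate 2 left Wnt11 and brought in Sfrp5. Over all genes 194 and 273 were called in that order. Without the Xist-positive hearts 2 members passed, Wnt11 and Wnt5a, both lower, and 9 had an unadjusted p under 0.05. Over all genes 281 passed in that fit. Kat6a KO replicate 3 was the heart with the most liver marker RNA, and the part of that in the calls was not tested.

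**Figure D5:**
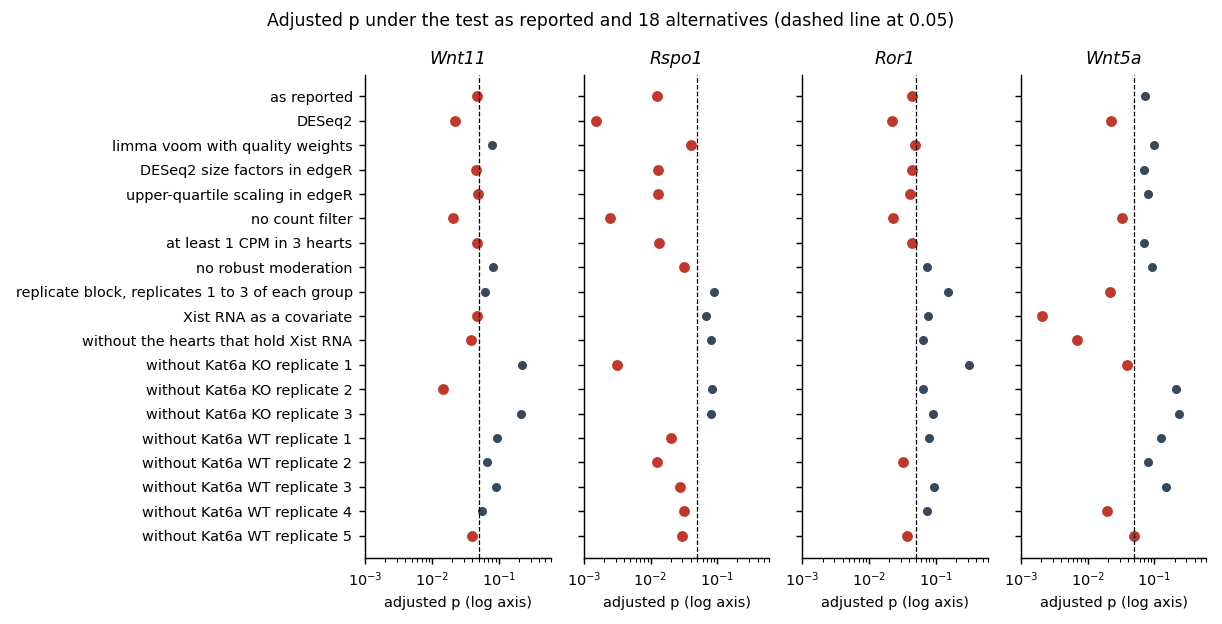
Adjusted p (log axis) of Wnt11, Rspo1, Ror1 and Wnt5a in the test as reported, at the top, and under 18 alternatives, with the threshold of 0.05 as a dashed line and values under it in red. Wnt11 runs from 0.0147 to 0.220 and Ror1 from 0.0216 to 0.311, Rspo1 crosses it in 5 settings, and Wnt5a passes it in 8.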

How the data were processed

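RNA of 8 whole hearts was sequenced, with TruSeq stranded libraries made from RNeasy Micro RNA, per the labels' protocols. The authors deposited whole-number read counts per gene, made with bcl2fastq and featureCounts on mm10, per the submitters' processing notes. The sources used here do not give the aligner, the annotation, the strand setting or the versions. The files record no normalization. The counts for single hearts and for the whole series were identical in all 8 hearts. Groups came from the genotype labels.

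Counts were tested as deposited with edgeR 4.0.16 in R 4.3.3 (filterByExpr, TMM scaling, robust quasi-likelihood fit), with Benjamini-Hochberg adjustment over 15086 genes and a threshold of 0.05. CPM and RPKM were computed here from the deposited counts and gene lengths. Libraries of 19911803 to 34539787 counts and a biological coefficient of variation of 9.10% set the precision. The test was checked on simulated data. Other fits used DESeq2 1.42.0 and limma 3.58.1, other scalings and filters, a replicate block, Xist RNA, and 1 heart left out at a time. Symbols were known for 25275 of 27179 genes. Genes were matched by Entrez ID to the 41 members and to 84 of 85 other listed pathway genes. The members and lists were chosen with earlier results of these data known. Values in every heart are given for members with an unadjusted p under 0.05, the most abundant member of each role, Axin2 and Lef1, and other pathway genes are named where they passed. Promoter windows and gene positions are from RefSeq (GRCm38.p6), and exon overlaps from GENCODE. Exons of 11 members overlap those of another gene, among them Wnt11, Wnt5a and Ctnnb1. The others overlap opposite-strand genes over 34.9% of exon bases for Dact1, 17.8% for Fzd5, 16.1% for Sfrp2 and 13.7% for Lef1. The share was 13.1% for Rspo3, 4.56% for Tcf7l1, 3.8% for Axin2 and 3.15% for Fzd6.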

Additional observations from a re-analysis of the deposited data

Results flagged for a closer look

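Among the 5 Kat6a WT hearts, 1 value stood far from the rest for 2 of the 41 members, by a test of the gap between the extreme heart and its nearest neighbour; chance marks about 1 in 20 groups. Wnt4 was at 18.3 CPM in Kat6a WT replicate 1, and the other 4 Kat6a WT hearts had 15.2 to 15.8 CPM. Dkk1 was at 5.31 CPM in Kat6a WT replicate 2, and the other 4 Kat6a WT hearts had 1.45 to 2.18 CPM.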

How the results depend on the processing

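Against 1 higher and 2 lower members in the test as reported, no robust moderation gave 0 higher and 1 lower. DESeq2 gave 1 higher (Ror1) and 6 lower, and limma voom 1 higher (Ror1) and 1 lower. Xist RNA as a covariate and the removal of the Xist-positive hearts gave 0 higher and 2 lower each. Over all genes these fits called 339, 560, 370, 284 and 281, in that order, against 403. With 1 heart left out at a time, 0 to 1 members were higher and 0 to 3 lower, and 194 to 496 of all genes were called. Same-numbered hearts showed no strong shared deviation from their group means, with correlations of -0.12 to 0.07. With so few hearts this cannot show whether they were matched by litter or batch. A replicate block over replicates 1 to 3 of each group, 6 hearts in all, gave 0 higher and 1 lower member, Wnt5a. It gave 186 calls over all genes against 403. Of 720 fold changes of members over 18 alternatives, 676 kept their sign and 44 did not, and all 44 lay in 13 members without an unadjusted p under 0.05. The reversed log2 fold changes were 0.38 for Wnt2, -0.011 for Wnt4, 0.29 for Fzd7, 0.11 for Fzd10, 0.067 for Dkk2, -0.0071 for Ctnnb1 and 0.11 for Axin2 with the replicate block. They were 0.44 for Wnt2, -0.010 for Wnt4, 0.33 for Fzd7, 0.016 for Fzd10, 0.035 for Dkk2, -0.011 for Ctnnb1 and 0.15 for Axin2 with the covariate. They were 0.39 for Wnt2, -0.013 for Wnt4, 0.29 for Fzd7, 0.021 for Fzd10, 0.0070 for Dkk2, -0.0072 for Ctnnb1 and 0.12 for Axin2 without the Xist-positive hearts, and 0.17 for Dkk2 with limma voom. With 1 heart left out the log2 fold changes ran from -0.28 to 0.20 for Wnt2, -0.020 to 0.083 for Wnt4, -0.15 to 0.061 for Fzd1, -0.0070 to 0.081 for Fzd4, -0.25 to 0.13 for Fzd7, -0.029 to 0.0048 for Lrp6, -0.13 to 0.060 for Sfrp1, -0.25 to 0.35 for Sfrp2, -0.18 to 0.17 for Dkk2, -0.12 to 0.12 for Axin2 and -0.0086 to 0.10 for Nkd1. The cause of these changes was not tested. TPM in place of RPKM left the order of members within every role as it was. That outcome was nearly fixed, because within a heart both measures differ only by a common factor. Depth limits Wnt6, whose counts were too low to test.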
